A study of Nothobranchius furzeri with 18 samples.

Results

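The transcriptome of wild-type tail fibroblasts of the African turquoise killifish, Nothobranchius furzeri, was described from the 6 libraries whose labelled genotype was WT, of 18 libraries in the series. The cells were primary cultures grown from tail tissue and harvested near confluence, and their polyadenylated RNA was sequenced. The remaining libraries came from fish with homozygous vgll3 mutations and were not compared here. The labels named the wild-type libraries F1, F9, F4A, F4B, FMA and FMB and gave no strain, age, sex or passage. Per the series design, names ending in A and B marked technical replicates, which gave 4 labelled cultures: F1, F9, F4 and FM. The labels did not say whether F1 and F9 were separate cultures, or whether any cultures came from separate fish.

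Fibroblasts are the cells that lay down and remodel the collagen-rich matrix of skin, fins and other connective tissues. They are usually recognised by fibrillar collagens, small leucine-rich proteoglycans, PDGF receptors and mesenchymal transcription factors, and by the lack of epithelial, endothelial and blood cell genes. In the fish tail they also carry a record of position along the body in their hox genes. Teleost fish kept many gene pairs from an ancestral genome duplication, so that a single gene of a mammal can have a pair of copies, usually named with a closing a and b.

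The wild-type libraries held 17915661 to 28146560 counts each, over 25099 genes. The mitochondrial share of the counts was 3.18% to 5.18%, with F9 highest, and that of ribosomal protein genes was 6.99% to 10.9%. Levels are given as CPM, each gene's count relative to its library's total after TMM scaling of the 6 libraries against each other. CPM depend on transcript length as well as on transcript number, so a rank by CPM is a rank by reads and not by molecules. The libraries labelled as technical replicates were not the most alike. F4A and F4B differed by more than 2-fold in 206 of the 11461 genes with a mean of at least 5 CPM, and FMA and FMB in 378. F4B and FMA, from differently labelled cultures, differed by that much in 11 genes. Levels are therefore given by library, and a mean ± SD over the 4 labelled cultures rests on the labels alone.

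**Figure D1:**
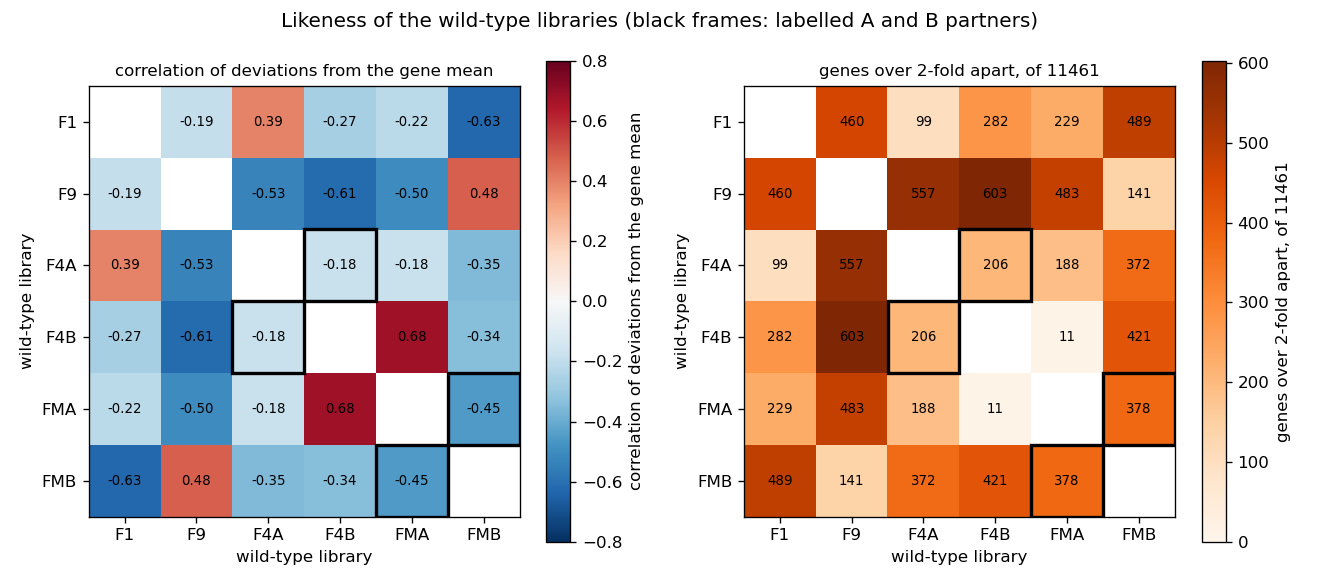
Likeness of each pair of wild-type libraries over 11461 genes. Left, the correlation across genes of the libraries' deviations from the gene mean of log2(CPM + 1), which was 0.68 for F4B and FMA and -0.45 for the labelled partners FMA and FMB; right, the number of genes over 2-fold apart, from 11 for F4B and FMA to 603 for F9 and F4B.

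Across these pairs, deviations from the gene mean ran together in F4B and FMA (correlation across genes 0.68), in F9 and FMB (0.48) and in F1 and F4A (0.39). The labelled partners F4A and F4B had a value of -0.18, and FMA and FMB had -0.45. Because all 6 deviations share a mean, libraries with nothing else in common would have a value of -0.2. Genes are not independent replicates, so these values are a description only. Whether the libraries' names match their cultures cannot be settled from these counts.

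Of the 25099 genes, 13109 were expressed, meaning at least 1 CPM in every wild-type library, which is 52.2% of all genes. A further 5918 genes (23.6%) were off, meaning under 0.1 CPM in every library, and 3572 genes had no count in any library. The remaining 6072 genes lay between. Of the expressed genes 10262 had a gene name and 2847 only an identifier or a clone-style symbol, such as those starting with si: or zgc:. Reads were concentrated in few genes: the 137 genes with a mean of at least 1000 CPM held 29.6% of all counts, the 1734 with at least 100 CPM held 68.9%, and the 9818 with at least 10 CPM held 98.0%.

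The 25 genes with the most reads included genes of the cytoskeleton, the mitochondrion and secreted proteins, beside others of different or unknown role. The cytoplasmic actin gene actb took the most reads, at 18091 ± 4426 CPM (SD, n = 4 labelled cultures). It stood at 21690 CPM in F1, 21340 in F4A, 21618 in F4B and 19525 in FMA, against 12371 in F9 and 13156 in FMB. F9 and FMB were thus the lowest libraries for actb, while FMA, the labelled partner of FMB, lay with the others. MT-COX1, a mitochondrially encoded subunit of cytochrome c oxidase, ranged from 9231 CPM in F4B to 14608 in F9.

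Other cytoskeletal genes among the 25 were tmsb4x, which encodes an actin monomer-binding peptide, at 3976 to 5951 CPM, and flna (LOC107391531), an actin cross-linker, at 2659 to 5785 CPM. Plectin (plec), which links intermediate filaments to adhesion sites, ranged from 2665 to 4541 CPM. The smooth muscle 22 kDa protein gene tagln (LOC107395633) had a wide range, with 1307 CPM in F9, 1949 in FMB, 3171 in F1, 3741 in FMA, 3757 in F4B and 4951 in F4A. Its lowest libraries were again F9 and FMB.

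Several of the 25 encode secreted or matrix proteins. Clusterin (clu), a secreted chaperone, stood at 4692 to 5760 CPM, and timp2, an inhibitor of metalloproteinases, at 3217 to 4237 CPM. The heparan sulfate endosulfatase sulf1 ranged from 2785 to 4104 CPM, the vasoactive peptide gene admb (LOC107373688) from 2424 to 4424 CPM, and the matrix glycoprotein thbs1 from 1309 CPM in F9 to 4171 in F4A. The transmembrane collagen col17a1b (LOC107376011), known in mammals as a component of the hemidesmosomes of skin keratinocytes, ranged from 1954 CPM in F4A to 3783 in F9.

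The rest of the 25 comprised the chaperone hspa8 (LOC107386347; 3359 to 5671 CPM), the RNA-binding protein gene hdlbp (2784 to 3878 CPM), the ribosomal protein gene rps2 (2104 to 4182 CPM) and the mitochondrial MT-CYTB, MT-COX2, MT-ND2, MT-COX3 and l-rRNA. MT-CYTB and MT-ND2 were highest in F9, at 4992 and 5181 CPM, against at most 3576 and 3392 CPM elsewhere. No gene name was given for LOC107394933 (5456 to 9285 CPM), LOC107379601 (5236 to 7987 CPM), LOC107385534 (3049 to 4646 CPM) and si:dkey-12l12.1 (LOC107382953; 1577 to 3927 CPM), and no role is given to them. Between 19 and all 25 of these genes were also among the 25 of highest CPM within a single library, with 19 in F9 and 25 in FMA.

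**Figure D2:**
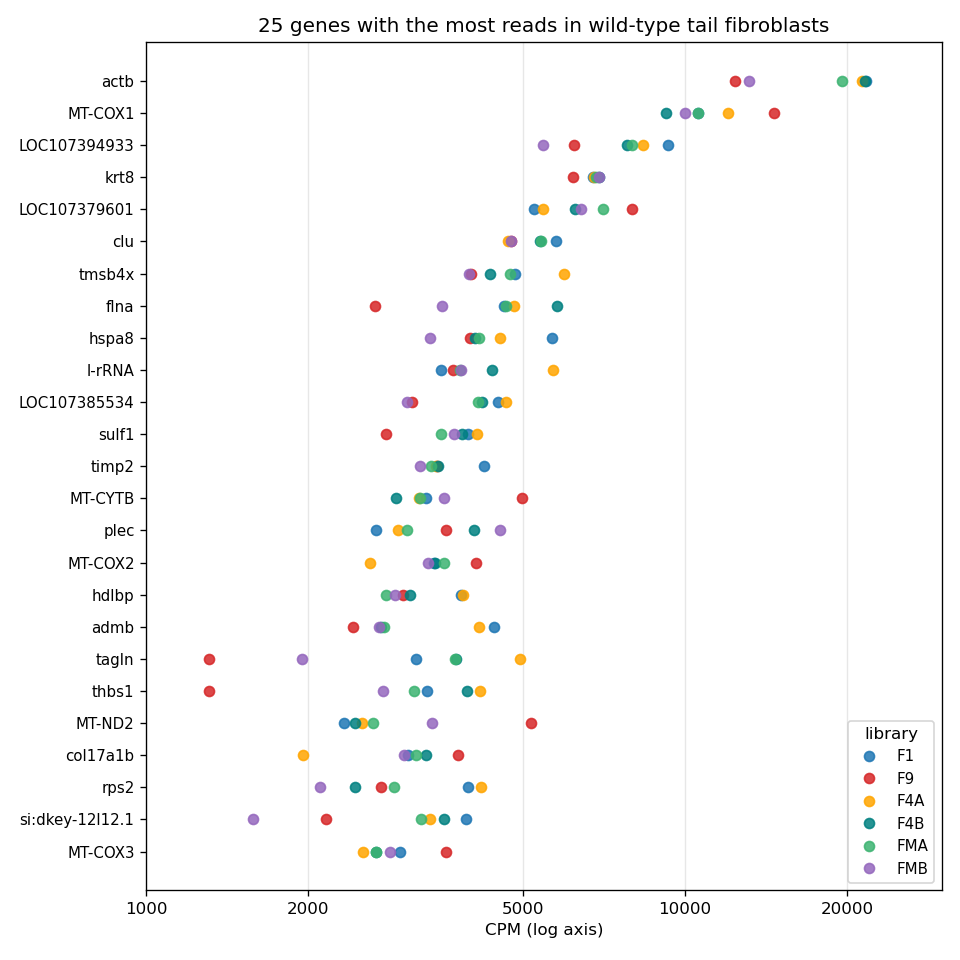
CPM (log axis) of the 25 genes with the highest mean CPM, with 1 point for each of the 6 wild-type libraries. The points of krt8 lie within 6203 to 6918 CPM, whereas F9 and FMB lie apart at the low end for actb and tagln.

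Fibroblast identity was examined with 47 genes on 2 lists, of matrix genes and of receptors and transcription factors. Of these, 34 were expressed, 8 lay between and 5 were off, with a median of 80.9 CPM, beside 2.71 CPM over all genes. Over the lists of other cells, which included the contractile list, 43 of 186 genes were expressed and 51 were off, with a median of 0.14 CPM. List names that were not found are not among these genes, and no level is known for them. Within the lists of other cells, the contractile (76.9%), tenocyte (75.0%) and osteoblast (63.6%) lists were expressed about as often as the fibroblast lists (79.2% and 65.2%). A mean of at least 5 CPM was reached by 8 of 13 contractile, 6 of 11 osteoblast and 1 of 4 tenocyte genes. In the fibroblast lists it was reached by 19 of 24 and 15 of 23. The pooled values therefore do not set fibroblast genes apart from contractile and osteoblast genes, and 4 tenocyte genes are too few to judge. Of all genes, 52.2% were expressed and 23.6% were off, and the counts of each list below are to be read beside these shares. The share off in the lists of other cells was close to that of all genes. In bulk RNA, few cells of a type and little RNA per cell cannot be told apart, so a low level does not say how many cells carried a transcript.

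Among matrix genes, 19 of 24 were expressed, and their summed level ran from 14480 CPM in F1 to 19259 in FMB. Type I collagen, the main fibrillar collagen of skin and bone, was read from col1a1a (LOC107391613) at 1896 ± 111 CPM, col1a1b (LOC107387680) at 1620 ± 173 CPM and col1a2 at 1797 ± 182 CPM (SD, n = 4 labelled cultures in each case). The ranges over the 6 libraries were 1706 to 2245 CPM, 1408 to 1959 CPM and 1567 to 2224 CPM, with FMB highest for each. The collagen-binding glycoprotein sparc stood at 1860 ± 132 CPM.

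Collagens that associate with type I were also expressed. Type V collagen, which sets fibril diameter, was read from col5a1 (LOC107374948; 819 to 1780 CPM) and col5a2a (LOC107390237; 1295 to 1809 CPM). Type VI collagen, a pericellular network, was read from col6a1 (452 to 691 CPM), col6a2 (285 to 371 CPM) and col6a3 (444 to 648 CPM). The fibril-associated col12a1 ranged from 1215 to 1914 CPM. Of these chains, col5a1 had the widest range relative to its level.

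The small leucine-rich proteoglycans differed in their evenness. Lumican (lum) ranged from 566 CPM in F4A and 595 in F1 to 1122 in FMB and 1355 in F9, and decorin (dcn, LOC107385809) from 511 in F4B and 525 in FMA to 988 in FMB. Biglycan (bgn) stood at 0.71 to 3.69 CPM and so did not reach 1 CPM in every library. Fibrillin 1 (fbn1, 358 to 643 CPM), the microfibril proteins mfap2 (206 to 418 CPM) and mfap5 (LOC107379413; 316 to 473 CPM) and fibronectin (fn1, 219 CPM in F9 to 677 in F4A) were expressed in every library.

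Some genes commonly listed for fibroblasts were near zero. Vimentin (vim), the intermediate filament gene of most mammalian mesenchymal cells, had 16 counts in all and at most 0.23 CPM in a library. Periostin (postn) and the mesenchymal transcription factor gene tcf21 had no count, which over the 6 libraries allows a level of up to 0.0229 CPM. The second periostin copy postnb (LOC107380231) reached at most 0.39 CPM, and tenascin C (tnca, LOC107374860) at most 0.68 CPM. A name search did not find col3a1, fbn2, mfap4, thy1 or s100a4. A copy under an identifier without a name would have been missed, and the same holds for a further vimentin copy. The vimentin-related gene vimr2 (LOC107377946) stood at 0.13 to 0.57 CPM.

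Receptors and transcription factors of mesenchymal cells were expressed in 15 of 23 cases, with a summed level of 1601 to 1867 CPM. The PDGF receptors pdgfra (126 to 206 CPM) and pdgfrb (122 to 231 CPM), which drive fibroblast growth, and the collagen receptor ddr2 (39.0 to 55.4 CPM) were present in every library. The homeobox gene prrx1, a regulator of limb and fin mesenchyme, was even, at 295 to 355 CPM. Both twist1 copies (twist1, 12.8 to 14.7 CPM, and twist1b, LOC107378688, 18.9 to 40.2 CPM), twist2 (46.0 to 90.1 CPM), snai1a (LOC107385873; 140 to 163 CPM) and zeb1 (53.6 to 93.0 CPM), all regulators of the mesenchymal state, were expressed. For snai2 F9 and FMB stood apart, with 43.7 and 35.8 CPM against 93.8 to 105 CPM in the others. The matrix gene fbln1 (LOC107395698) ranged from 188 CPM in F4A to 567 in F9, while a second gene of that name stayed at 0.51 to 1.39 CPM. No count was seen for the second zeb2 copy zeb2a (LOC107382762), and meox1 had 3 counts.

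Genes of contractile cells, which activated fibroblasts share with smooth muscle, were expressed in 10 of 13 cases. Their summed level was 2790 CPM in F9, 4127 in FMB, 5750 in F1, 7274 in FMA, 7496 in F4B and 8735 in F4A. Smooth muscle actin (acta2), the usual marker of myofibroblasts, stood at 65.9 CPM in F9, 162 in FMB, 178 in F1, 478 in F4A, 514 in FMA and 596 in F4B. FMA and FMB, labelled as technical replicates, thus lay far apart, and F9 was lowest. The myosin light chain gene myl9b (LOC107385525) ranged from 605 CPM in F9 to 1756 in F4A, cald1a (LOC107395349) from 323 in F9 to 713 in F4B, and tpm1 from 268 in F9 to 656 in F4B. The median SD of log2(CPM + 1) over the list's 8 genes with a mean of at least 5 CPM was 0.53, beside 0.19 over all 11461 such genes. None of its 13 genes passed the test among labelled cultures described further on. Only 2 of 15868 genes (0.0126%) passed it at all, so this does not mark the list as even. The test takes its spread from labelled partners, which lay far apart for acta2 in FMA and FMB.

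Epithelial genes gave a mixed picture. Of 13 keratinocyte genes 5 were expressed: krt8, dsp, ppl, evpl and tp63. No gene was found under the list's names krt4, krt17 and krt18. Keratin 8 (krt8, LOC107391340), a keratin of simple epithelia in mammals, was among the genes with the most reads, at 6203 CPM in F9 and 6757 to 6918 CPM in the other 5 libraries. Its usual partner krt18a.1 (LOC107391341) stood at 1284 to 1656 CPM. Keratin 5 (krt5, LOC107391339), of basal keratinocytes, had 4 counts in all, and the adhesion genes cdh1 and epcam stood at 0.25 to 0.62 and 0.67 to 3.11 CPM. The keratinocyte regulator tp63 stood at 1.89 to 3.92 CPM, the epithelial splicing factor gene esrp1 had 2 counts, and grhl1 and grhl3 stayed under 1 CPM. Desmoplakin (dsp), of desmosomes, ranged from 95.3 to 202 CPM. The part of other cells in these values was not tested.

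Within the cadherins, the adhesion genes whose members mark cell types, 7 of 20 were expressed. The mesenchymal cdh11 stood at 505 to 662 CPM and N-cadherin (cdh2) at 94.2 to 185 CPM, while E-cadherin (cdh1) did not reach 1 CPM in any library. For cdh4 F9 and FMB were high, with 120 and 121 CPM against 42.3 to 48.4 CPM in the others. Of 17 intermediate filament genes 6 were expressed: krt8, krt18a.1, the lamins lmna (591 to 703 CPM), lmnb1 and lmnb2, and nestin (nes, 3.36 to 8.86 CPM). Desmin (des) had 5 counts and gfap (LOC107378535) had 4. Of these 17 genes, krt8, krt18a.1 and nes were thus the cytoplasmic ones that reached 1 CPM in every library.

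Genes of skeletal lineages were expressed in part. Of 11 osteoblast genes 7 were expressed, with a summed level of 704 CPM in F9 to 2210 in F4B. Names bglap, ibsp and dmp1 were not found. The transcription factor gene runx2b (LOC107378134) was even, at 130 to 190 CPM. The osteoblast regulator sp7 stood at 0.40 to 2.22 CPM. Osteopontin (spp1, LOC107375072) was at 278 CPM in F9, 354 in FMB, 928 in F1, 1470 in F4A, 1567 in FMA and 1725 in F4B, the same order of libraries as for acta2. Alkaline phosphatase (alpl) ran from 116 CPM in F1 to 277 in FMB, and the collagen gene col10a1a (LOC107392152) from 5.67 CPM in F4A to 30.9 in FMA. Of 13 chondrocyte genes only col2a1b (LOC107385311) and matn3 were expressed, and sox9 was not found by name. The cartilage collagen gene col2a1b stood at 46.5 CPM in F9 and 37.2 in FMB against 3.74 to 12.6 CPM in the others, while acan stayed at or under 0.24 CPM and cnmd (LOC107389955) had no count. Of 4 tenocyte genes 3 were expressed: the immediate early gene egr1 (174 to 508 CPM), tnmd (3.46 to 5.63 CPM) and mkx (1.20 to 3.70 CPM), and the tendon regulator scx stayed at or under 0.21 CPM.

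Vascular genes were few. Of 12 endothelial genes 4 were expressed: fli1 (17.6 to 31.4 CPM), VE-cadherin (cdh5, LOC107375902; 11.3 to 36.5 CPM), egfl7 (2.23 to 11.1 CPM) and esamb (LOC107380614; 2.47 to 6.23 CPM). The VEGF receptor gene kdr stayed at or under 0.17 CPM, vwf had 4 counts and pecam1a (LOC107376698) none. A search for tek, erg and etv2 found no gene of those names. Of 8 mural cell genes notch3 (LOC107378341; 87.0 to 157 CPM), cspg4 (LOC107395146; 54.6 to 81.6 CPM) and mcam (1.91 to 8.18 CPM) were expressed. The pericyte genes kcnj8 (LOC107387097) and abcc9 (LOC107387088) stayed at or under 0.45 and 0.40 CPM.

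Few blood cell genes were expressed. The summed level of 18 leukocyte genes was 13.3 to 27.7 CPM. Of these only cd8a (LOC107385466), a T cell coreceptor in mammals, was expressed, at 8.73 to 18.4 CPM. The actin-bundling gene lcp1 (0.21 to 4.60 CPM), csf1ra (LOC107375663; 0.50 to 2.36 CPM) and coro1a (LOC107378499; 0.42 to 2.21 CPM) had a mean of at least 1 CPM without reaching it in every library. The pan-leukocyte gene ptprc had 15 counts, cd3e had 1, and lck, csf1r and spi1b (LOC107381469) had none. None of 6 erythrocyte genes was expressed, and gata1a (LOC107385863) and slc4a1b (LOC107387920) had no count. The highest was slc4a1, at up to 0.17 CPM. Globins were not measured, since hbaa1 and hbae1 were not found by name, and neither was epb42. Of the leukocyte names mpeg1, cd4 and ighm were not found.

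Few skeletal muscle, nerve and glial genes were expressed. Of 16 skeletal muscle genes only the calcium release channel ryr1b (LOC107379827) was expressed, at 19.4 to 45.3 CPM. The myogenic regulators myod1, myog, myf5 and myf6 had 1 or 2 counts each, and pax3a (LOC107384025) and ckma (LOC107386319) had none. Not found by name were tnni2, tnnc2 and ttn. Of 14 neuronal genes 1 was expressed and 2 were off, and their summed level was 12.8 to 27.6 CPM. None of 13 Schwann cell and glial genes was expressed; egr2 was highest, at 0.48 CPM in FMB to 3.20 in F1, and s100b, erbb3 and plp1b (LOC107386530) had no count.

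Pigment and germ cell genes were expressed in part. Of 15 pigment cell genes 3 were expressed: mitfb (LOC107396419; 9.68 to 12.9 CPM), the melanin pathway enzyme dct and pnp4a (LOC107384945; 1.65 to 8.67 CPM). For dct F4B and FMA were high, with 22.6 and 20.3 CPM against 3.74 to 8.10 CPM in the others. The melanocyte regulator mitfa (LOC107385805) and tyrp1b (LOC107382179) had no count. Of 8 germ cell and pluripotency genes the piRNA-binding piwil1 (1.42 to 6.56 CPM) and the meiotic sycp3 (1.60 to 2.86 CPM) were expressed, and nanog (LOC107382707) had no count. Of these lists' names kita, nanos2 and nanos3 were not found.

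No gene was expressed among 6 secretory cell and ionocyte genes, where cftr was highest at up to 1.27 CPM, or among 4 notochord and floor plate genes, where tbxta (LOC107395189) was highest at up to 0.25 CPM. Their genes atoh1, shh, foxj1a (LOC107396501) and foxj1b (LOC107388252) had no count. Of 12 genes of liver, pancreas and retina only the digestive enzyme gene cpa1 was expressed, at 1.05 CPM in F9 to 12.6 in F4A, and fabp10a (LOC107379340), fgb and gnat1 (LOC107385205) had no count. Across these lists muc5ac, noto, ins, prss1 and opn1sw1 were not found by name.

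**Figure D3:**
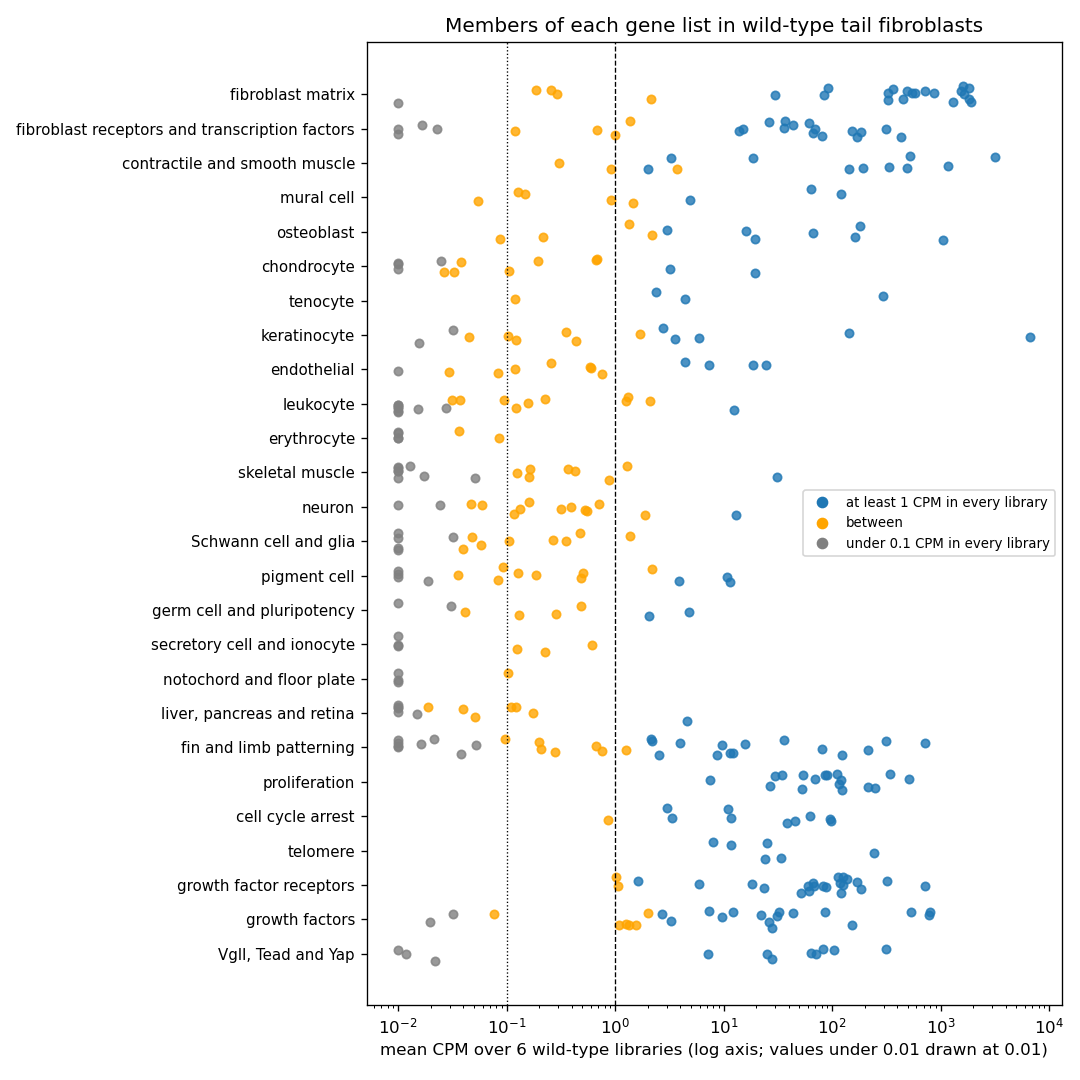
Mean CPM over the 6 wild-type libraries (log axis) of each member of 26 gene lists, with 1 point a gene and vertical lines at 0.1 and 1 CPM. Members of the fibroblast, proliferation and receptor lists lie mostly right of 1 CPM and those of blood, skeletal muscle, nerve and glia mostly left of it.

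Positional genes of the posterior body were expressed in part. Hox genes are clustered homeobox genes whose group numbers follow position from head to tail. Of 40 hox genes 14 were expressed and 17 were off, beside 52.2% and 23.6% of all genes. By group number, 11 of 18 genes of groups 9 to 13 were expressed, against 3 of 22 of groups 1 to 8. The share of groups 9 to 13 was not far from that of all genes. In the hoxa clusters 8 of 14 genes were expressed: hoxa9 (2.67 to 7.20 CPM), hoxa9b (LOC107373762; 6.39 to 9.87 CPM), hoxa10 (7.48 to 9.53 CPM), hoxa10b (LOC107373759; 41.1 to 59.9 CPM), hoxa11 (11.5 to 16.9 CPM), hoxa11b (LOC107373761; 15.2 to 25.4 CPM), hoxa13 (41.8 to 68.4 CPM) and hoxa13b (LOC107373760; 48.2 to 74.4 CPM). These are both copies of each of 4 group numbers, while hoxa2 to hoxa5 had at most 4 counts each. The hoxc cluster gave hoxc11 (2.36 to 4.02 CPM), hoxc12a (LOC107390914; 22.5 to 35.4 CPM) and hoxc13 (54.0 to 90.6 CPM), with hoxc10a (LOC107390912) at 6 counts.

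The hoxb and hoxd genes differed from this order. The expressed hoxb genes were hoxb2 (3.59 to 7.07 CPM), hoxb3a (LOC107391819; 1.47 to 4.45 CPM) and hoxb8a (LOC107391821; 1.40 to 3.59 CPM), while the most posterior of them, hoxb13a (LOC107372950), had 1 count. None of 6 hoxd genes was expressed: hoxd10 was highest, at 0.09 to 0.45 CPM, hoxd12 had 3 counts, and no gene named hoxd13 was found.

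**Figure D4:**
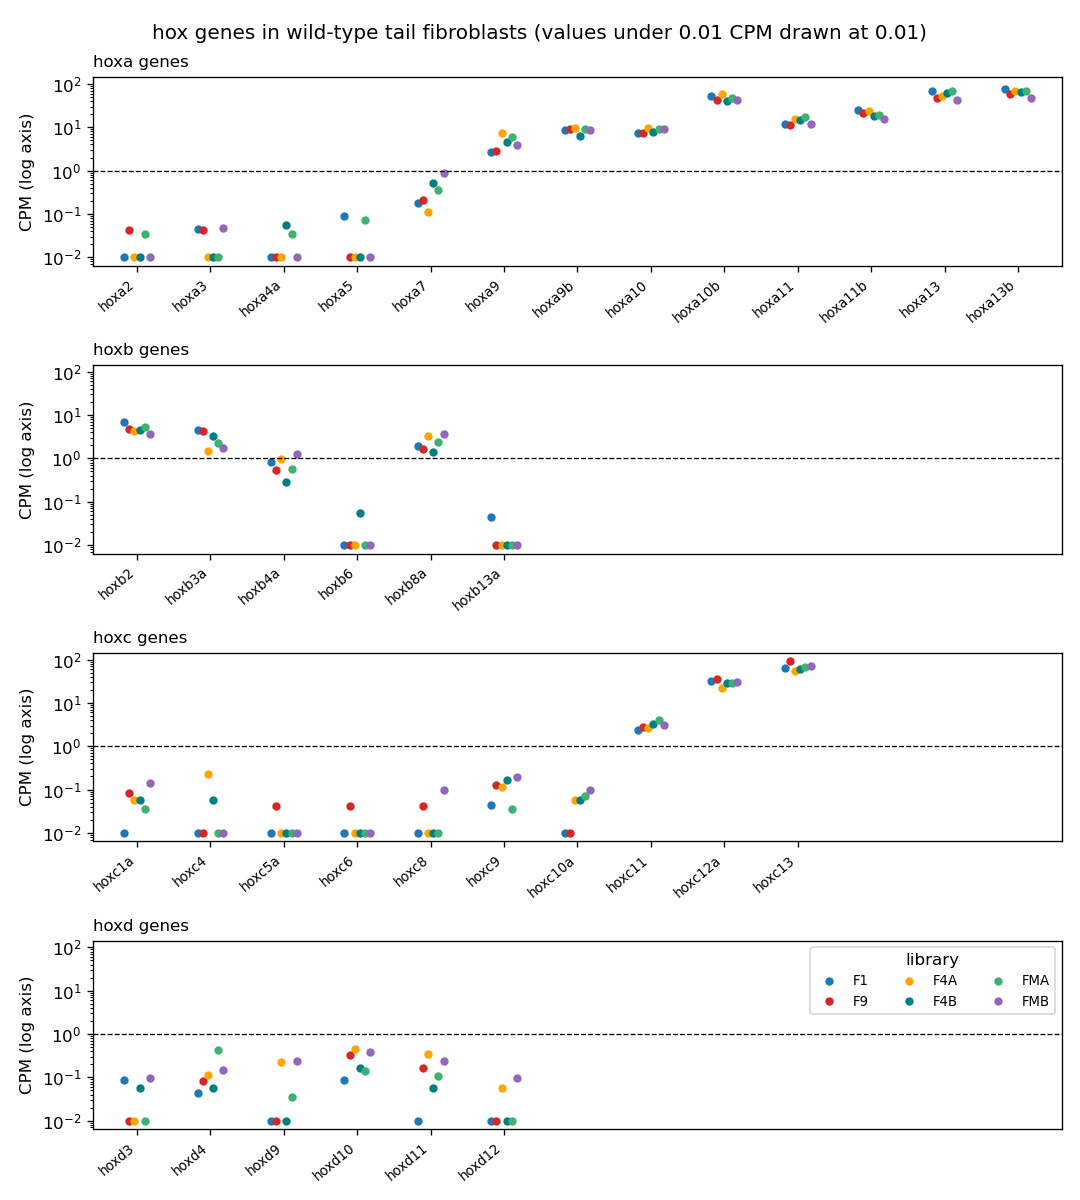
CPM (log axis) of the hox genes with at least 1 count, by cluster and group number, with 1 point for each of the 6 wild-type libraries and a dashed line at 1 CPM. The hoxa genes of groups 9 to 13 and hoxc11, hoxc12a and hoxc13 lie above 1 CPM in every library, and no hoxd gene does.

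Of 30 genes of fin and limb patterning 15 were expressed, 7 lay between and 8 were off. The retinoic acid-degrading enzyme cyp26b1 (LOC107376907) ranged from 507 to 981 CPM, and the retinoic acid-making aldh1a2 from 3.82 CPM in F9 and 7.21 in F1 to 18.1 to 21.8 CPM in the others. For aldh1a2 labelled partners lay close together. The transcription factor genes tbx18 (LOC107378143; 180 to 250 CPM), msx1 (99.0 to 155 CPM) and dlx5 (30.9 to 41.0 CPM) were even by comparison. That of sall1 (52.2 to 103 CPM) had about the same relative range as cyp26b1. The posterior homeobox gene evx1 was low in F9 and FMB, with 2.02 and 1.53 CPM against 10.0 to 18.2 CPM. The genes that place paired fins and limbs in vertebrates, tbx5a (LOC107374131), tbx4 and pitx1, had 3, 7 and 1 counts, hand2 (LOC107373326) had 1 and shox (LOC107389706) none.

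The cultures carried transcripts of dividing cells. All 17 proliferation genes were expressed, with a summed level of 2034 to 2492 CPM. The replication clamp pcna stood at 388 to 681 CPM, mki67 at 278 to 410, the helicase subunit mcm2 at 202 to 317 and the topoisomerase top2a (LOC107388094) at 173 to 271 CPM. Of 10 genes of cell cycle arrest 9 were expressed, among them gadd45ab (LOC107387371; 53.1 to 133 CPM), the CDK inhibitor cdkn1a (LOC107385762; 48.2 to 89.4 CPM) and rb1 (36.5 to 52.7 CPM). Names cdkn2a and cdkn1c were not found. All 6 telomere genes were expressed, including the telomerase reverse transcriptase tert at 10.1 to 14.4 CPM, dkc1 (201 to 271 CPM), tinf2 (27.3 to 38.0 CPM) and terf2 (21.8 to 27.7 CPM). On the log2 scale the median SD was 0.24 for proliferation, 0.21 for arrest and 0.18 for telomere genes, beside 0.19 over all genes. At the median, proliferation and arrest genes thus varied somewhat more than all genes, and telomere genes about as much.

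Growth factor receptors were expressed in 21 of 23 cases. The FGF receptors fgfr4 (547 to 902 CPM) and fgfr2 (226 to 445 CPM) were read in every library, with fgfr2 at 445 and 440 CPM in F4B and FMA against at most 298 CPM elsewhere. Of 24 growth factor and secreted signal genes 16 were expressed, among them the matricellular cyr61 (633 to 928 CPM) and ctgf (496 to 1111 CPM), both known Yap targets in mammals, wnt5a (355 to 640 CPM) and bmp4 (121 to 193 CPM). The fin bud signal fgf10 had 4 counts and pdgfc had 3.

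The Vgll proteins are cofactors that bind the Tead transcription factors, the DNA-binding partners of Yap. Of 11 such genes 8 were expressed. The gene that the series mutated in its other libraries, vgll3, stood at 312 ± 31.2 CPM (SD, n = 4 labelled cultures), with 233 CPM in FMB, 267 in F9, 323 in F1, 331 in F4A, 345 in F4B and 384 in FMA. Its range was less than 2-fold, with F9 and FMB lowest. Also expressed were vgll4 (55.5 to 85.2 CPM), vgll4a (LOC107391090; 6.08 to 9.79 CPM), tead1, tead1a (LOC107389211), tead3, tead3a (LOC107390951) and yap1 (89.8 to 133 CPM). The remaining family members vgll1, vgll2 and vgll2b (LOC107392207) were off, with 3, 2 and 1 counts.

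Gene pairs whose names differ only in a closing a or b, or in the presence of one, numbered 1493. Both members were expressed in 683 pairs, 1 was expressed and the other off in 117, and both were off in 79. In 294 further pairs 1 member was expressed and the other lay between. Of all genes, 52.2% were expressed and 23.6% were off, and the pair counts were not tested against these shares. Names alone set these pairs, which therefore include older family members such as myo18a and myo18b beside teleost copies. Kinship was not checked, as for abr and abra. A gene could enter more than 1 pair, as ldhb did with ldhbb and with ldha, so these are not counts of distinct paralog pairs. Reads of near-identical copies can be split or lost in counting, so a count near zero for a copy is uncertain.

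In 23 of the 117 pairs the expressed member had a mean of at least 50 CPM. The matrix protein gene paplna (LOC107391851) ranged from 397 CPM in F9 to 1481 in F4B, with no count for paplnb (LOC107377466). The lactate dehydrogenase gene ldhb ranged from 330 to 442 CPM, with no count for ldhbb (LOC107388469). The phosphate transporter slc20a1b (LOC107372824) ranged from 179 to 334 CPM, with 1 count for slc20a1a (LOC107393652), and the matrix gene frem2b (LOC107380229) from 143 to 370 CPM, with 5 counts for frem2. Further pairs with no count in the lower member were prkar2a (90.2 to 112 CPM) with prkar2ab (LOC107395124), the zinc finger gene klf5 (49.6 to 92.2 CPM) with klf5b (LOC107389726), the anion exchanger slc4a2 (41.6 to 70.3 CPM) with slc4a2a (LOC107383634), and prom1a (LOC107380104; 30.7 to 87.8 CPM) with prom1b (LOC107372534). That each of these pairs was read from the same member in all 6 libraries follows from how expressed and off were defined.

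Where both members of a pair had a mean of at least 5 CPM, their ratio was followed over the libraries. It was the difference of the members' log2(CPM + 1), so transcript length cancels only in part. At low CPM it is smaller than the plain ratio of CPM. In 585 such pairs the log2 ratio had a median range of 0.61 over the 6 libraries, and in 108 the range passed 1. The widest was that of gdf10a (LOC107375639), a TGFβ family ligand, against gdf10b (LOC107375815), from -0.40 in F9 to 2.89 in F4A. In this pair gdf10a ran from 4.24 to 56.0 CPM, whereas gdf10b stayed at 5.92 to 8.13 CPM. For the talin genes tln2a (LOC107381554) and tln2 the log2 ratio ran from -1.43 in F9 to 1.59 in F4A, and the member with more reads changed. The elastin genes elna (LOC107380370) and eln differed by 0.80 in F1 and 3.16 in F9, with eln even at 14.8 to 20.3 CPM.

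Variation among the wild-type libraries was next described gene by gene. Over the 11461 genes with a mean of at least 5 CPM the SD of log2(CPM + 1) had a median of 0.19 and a 95th percentile of 0.55. It passed 0.5 in 711 genes and 1 in 99, of which 74 had a gene name. In 35 of these 99 genes F4B and FMA were the highest libraries, and in 21 F9 and FMB were. In 39 F9 and FMB were the lowest libraries, and in 18 F1 and F9 were. The labelled partners FMA and FMB were the highest pair in none of the 99 and F4A and F4B in 9. Over all 11461 genes the highest pair was F4B and FMA in 13.2%, F9 and FMB in 14.7%, F4A and F4B in 4.67% and FMA and FMB in 2.27%, and most often F1 and F4A, in 19.8%. The lowest pair was F9 and FMB in 18.5% of all genes and F1 and F9 in 6.19%.

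Among the 20 named genes of largest spread, several were high in F9 and FMB. The matrix protein gene abi3bpb (LOC107384590) stood at 166 CPM in F9 and 172 in FMB against 6.92 to 27.7 CPM in the others. Enzymes of phenylalanine and tyrosine breakdown followed the same libraries: phenylalanine hydroxylase (pah) stood at 378 and 264 CPM against 33.9 to 54.6 CPM, and 4-hydroxyphenylpyruvate dioxygenase (hpdb, LOC107393663) at 374 and 354 CPM against 23.4 to 41.1 CPM. The immunoglobulin domain gene igsf10 stood at 161 and 149 CPM against 16.0 to 19.0 CPM, and the transcription factor gene klf15 at 24.7 and 31.4 CPM against 2.27 to 3.86 CPM. These genes were picked for their spread and grouped by their high levels in F9 and FMB. Their lack of overlap with the other 4 libraries follows from that choice.

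Others were low in the same libraries. The gelatinase gene mmp9 stood at 0.84 CPM in F9 and 0.96 in FMB against 16.8 to 24.5 CPM. The insulin-like growth factor igf2 stood at 11.1 and 22.0 CPM against 100 to 157 CPM, the Smad corepressor skil at 12.2 and 21.9 CPM against 87.1 to 120 CPM, and ccdc130 at 15.8 and 32.7 CPM against 58.4 to 151 CPM. The metalloreductase steap4 (2.77 and 6.18 against 16.0 to 47.1 CPM), the cation channel trpc6a (LOC107386363; 0.50 and 1.72 against 4.31 to 24.1 CPM) and the lubricin gene prg4b (LOC107392878; 3.74 and 14.5 against 23.6 to 110 CPM) were also lowest there. For prg4b and trpc6a F4A was highest. Since these genes were grouped by low levels in F9 and FMB, FMA, the labelled partner of FMB, lay with F1, F4A and F4B in each.

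A further set separated F4B and FMA. The Notch target hey2 (LOC107378200) stood at 29.6 and 32.0 CPM there against 0.71 to 1.39 CPM in the others, and the secreted proteoglycan esm1 at 37.2 and 38.1 CPM against 1.68 to 5.56 CPM. Reelin (reln), a secreted glycoprotein, stood at 49.1 and 39.6 CPM against 3.96 to 17.7 CPM. The melanosome transport gene mlphb (LOC107396306) went the other way, with 1.23 and 1.41 CPM against 15.0 to 31.0 CPM.

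F1 and F9 formed the third pattern. The myosin gene myo15b (LOC107396700) stood at 24.2 CPM in F1 and 26.4 in F9 against 1.38 to 2.73 CPM in the others. The immunoglobulin superfamily gene igdcc4 had no count in F1 or F9 and 13.1 to 27.4 CPM elsewhere, which gave it the largest SD of the named genes, 2.24. The nonmuscle myosin gene myh14 (LOC107379706; 1.69 and 1.39 against 8.22 to 19.7 CPM) and the thrombospondin thbs4b (LOC107374746; 1.78 and 0.97 against 6.95 to 17.2 CPM) were also lowest in F1 and F9.

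**Figure D5:**
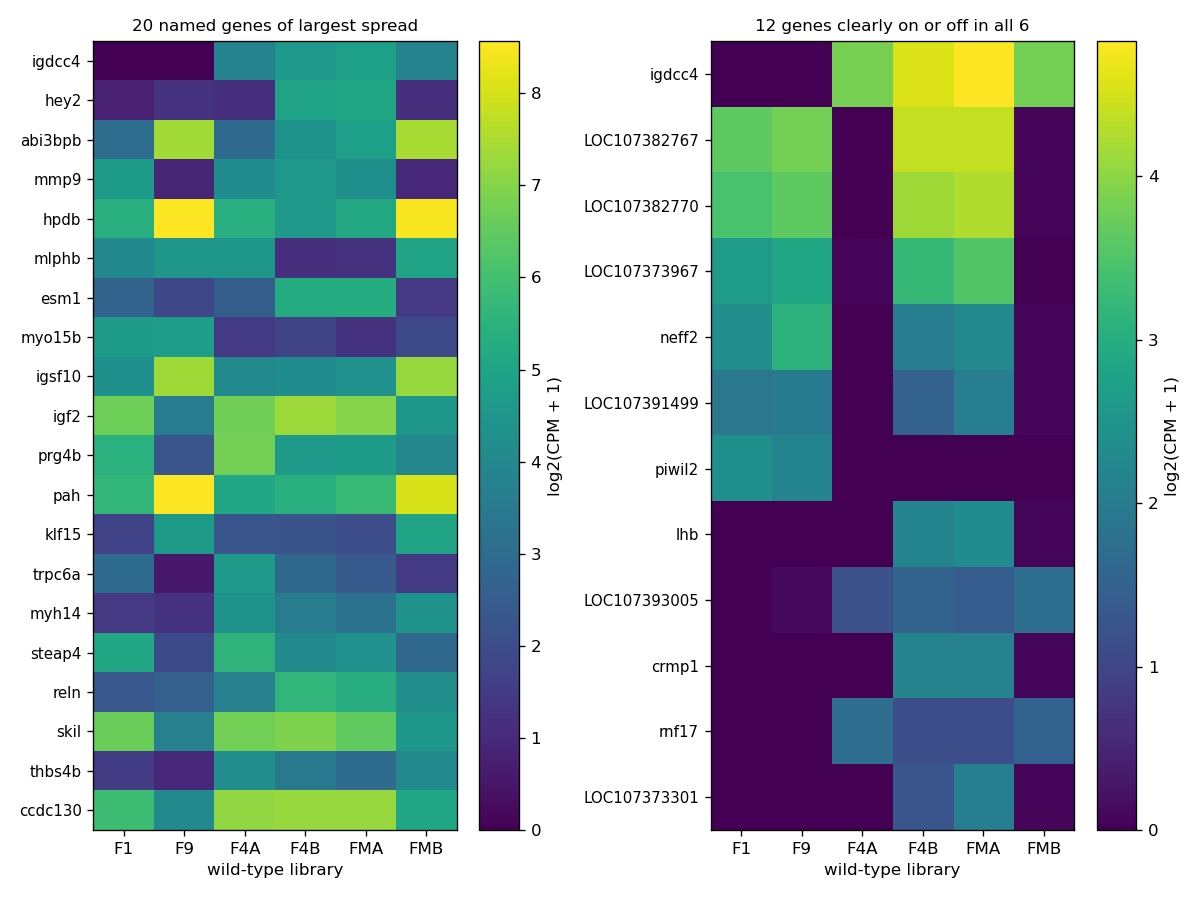
Level as log2(CPM + 1), by colour, in the 6 wild-type libraries. Left, the 20 named genes of largest spread, such as hey2, high in F4B and FMA; right, the 12 genes that were on (at least 1 CPM) or off (under 0.1 CPM) in each of the 6 libraries.

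Whether labelled cultures differed by more than their technical replicates was tested with edgeR's quasi-likelihood F test and Benjamini-Hochberg adjustment. Of 15868 genes tested 2 passed an adjusted p of 0.05, which is 0.0126%, and 764 had an unadjusted p below 0.05. Both genes separated F1 and F9 from the other libraries: myo15b (adjusted p = 0.0445, edgeR) and LOC107396593 (adjusted p = 0.0445, edgeR), which stood at 2.58 CPM in F1 and 3.32 in F9 against 16.5 to 19.1 CPM. Neither gene passed when F1, F9, F4A or F4B was left out. Without FMA 1007 genes passed, and without FMB 676. The test takes its spread from the labelled partners, whose common coefficient of variation was 0.225, beside 0.233 over all 6 libraries regardless of label. No member of the 26 gene lists passed.

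Genes that were on in at least 1 library, at 1 CPM or more, and off in at least 1 other, under 0.1 CPM, numbered 139, of which 69 had a gene name. A set of 12 was on or off in each of the 6 libraries. In all 12 F1 and F9 were alike, F4A and FMB were alike, and F4B and FMA were alike. The labelled partners F4A and F4B were alike in 4 of the 12, and so were FMA and FMB. Of the 139 genes, those on or off in both libraries were alike in 31 of 47 for F1 and F9. The values were 26 of 42 for F4A and FMB, 39 of 41 for F4B and FMA, 18 of 35 for F4A and F4B and 8 of 31 for FMA and FMB. Over the 11461 genes described above, F1 and F9 differed by more than 2-fold in 460, and F4A and FMB in 372. The 12 genes thus do not measure likeness over all genes. Most of the 139 genes lay at low levels, and only 4 of them had a mean of at least 5 CPM. All 4 were among the 12, with igdcc4 highest at a mean of 12.8 CPM.

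Of the 12, igdcc4, rnf17 (LOC107395413) and LOC107393005 were off in F1 and F9 and on elsewhere. The germ cell gene rnf17 stood at 1.20 to 2.32 CPM in the 4 libraries where it was on. The piRNA pathway gene piwil2 showed the reverse, with 4.36 CPM in F1, 3.53 in F9 and no count in the other 4 libraries. Off in F4A and FMB alone were 5 genes, among them neff2 (LOC107391886), at 3.14 to 7.56 CPM in the others, and LOC107382767, at 11.4 to 19.9 CPM in the others against 0 and 0.05 CPM. On in F4B and FMA alone were lhb (LOC107396183), which encodes the beta subunit of luteinizing hormone, at 3.53 and 4.06 CPM, the neuronal gene crmp1 (LOC107382174), at 3.47 and 3.42 CPM, and LOC107373301.

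Named genes outside these 12 lay between the limits in at least 1 library, and those with the most counts are given. The stress-regulated ndrg1 stood at 10.5 CPM in F4B and 11.5 in FMA against at most 0.14 CPM in the others. The forkhead gene foxc1a (LOC107383906) stood at 0.04 CPM in F9 and 0.62 in FMB against 2.98 to 4.82 CPM. The gene gmip (LOC107378323) was highest in F1 and F9, at 4.09 and 4.75 CPM against at most 0.82 CPM. The transcription factor gene hand1 stood at 2.18 CPM in both F1 and F9 and at most 0.11 CPM elsewhere.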

How the data were processed

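Polyadenylated RNA of 6 wild-type fibroblast libraries was sequenced single-end after KAPA mRNA HyperPrep preparation, per the labels' protocols. The authors' deposited table holds whole-number counts per gene, not normalized, for 18 libraries. Software listed in the submitters' processing notes comprised the aligner STAR (2.7.6a), the trimmers cutadapt (3.4) and Trim Galore (0.6.4), FastQC (0.11.8) and edgeR (3.32.1). Not given in the sources used here are the genome build, the annotation, the use of strand and the treatment of reads matching several genes, so counts of near-identical, overlapping or antisense genes are uncertain.

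CPM were computed from the counts with TMM factors over the 6 libraries (edgeR 4.0.16, R 4.3.3; factors 0.949 to 1.06), with the summaries made in Python. Names came from the files and, for 5241 LOC numbers, from RefSeq (assembly NfurGRZ-RIMD1), to which 17481 of 25099 identifiers matched; coordinates are not printed, and a few genes are not reported here. Genes were expressed at 1 CPM or more in every library and off under 0.1 CPM in every library. The floor of 0.0229 CPM is 3 counts over the 6 libraries and allows for counting error alone, because reads lacking molecular identifiers are no independent molecules. Spread was the SD of log2(CPM + 1) over libraries, for genes with a mean of at least 5 CPM. The F test used filterByExpr, robust quasi-likelihood dispersions and a term per labelled culture, and was tested on simulated data. The simulation had a smaller spread than these libraries and took the labels as right, so it does not show how the test performs here. The p-values of the F test set differences among labelled cultures against the spread within the labelled pairs of F4 and FM. F1 and F9, with 1 library each, add nothing to that spread. Differences between these libraries may be technical.

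The members and gene lists were chosen with earlier results of these data known. Named were the 25 genes of highest mean CPM, up to 4 expressed members of each list with its markers at 0 or its highest member, the expressed hox genes, the 20 named genes of largest spread, the genes past the F test, and named genes on in some libraries and off in others (those of most counts). Further list members and hand1 were named after their values were seen. A planned comparison of paralogs per coding length was not made, because no lengths were at hand; pairs with 1 member expressed and the other off were named instead, after their values were seen. The alternatives were other thresholds, scalings, filters and pseudocounts, DESeq2 1.42.0, and leaving out each library.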

Additional observations from a re-analysis of the deposited data

Results flagged for a closer look

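In 87 reported values (shares of library types, summed levels of gene lists and levels of named genes) the gap between the outermost library and the next was compared with the whole range of the 6 libraries. In 10 of the 87 the gap was large by Dixon's criterion, which chance alone meets in about 1 in 20 independent groups. The 87 values are not independent, since sums share genes with single values and some genes were chosen for their spread, so the count of 10 is not to be read against that rate.

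F9 stood apart in 5 of the 10. Its mitochondrial share was 5.18%, the highest, with MT-CYTB at 4992 CPM and MT-ND2 at 5181 CPM, also the highest. Its krt8 level, 6203 CPM, was the lowest of a narrow range, and with it the summed level of the keratinocyte list, 6367 CPM.

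F1 stood apart with the highest timp2 level, 4237 CPM, and with the highest summed level of Schwann cell and glial genes, 4.76 CPM, which came mostly from egr2. F4A stood apart with the highest levels of prg4b, 110 CPM, and trpc6a, 24.1 CPM. F4B stood apart with the lowest level of hoxa9b, 6.39 CPM. Single libraries were not tested against each other. The test among labelled cultures included timp2, krt8, MT-CYTB, MT-ND2, prg4b, trpc6a and hoxa9b, and none of them passed it.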

How the results depend on the processing

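No paired analysis was possible because no groups were compared. The number of expressed genes, 13109, ran from 12229 to 13877 over the other thresholds and scalings and from 13131 to 13200 when a library was left out; pairs with both members expressed, 683, ran from 627 to 748 and from 684 to 690, and expressed fibroblast genes, 34, rose to 36 with a mean of at least 1 CPM.

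The number of genes that differed among labelled cultures, 2, depended on the settings. It was 181 with DESeq2's likelihood ratio test, 226 with no filter on low counts, 30 when all 18 libraries shared the spread, 0 with at least 1 CPM required in every library and 0 without robust dispersions, with 578 and 776 genes at an unadjusted p below 0.05 in these last fits. Leaving out a library gave 0 to 1007 genes, with 0 without F1, F9, F4A or F4B (493 to 699 at an unadjusted p below 0.05). With F1 and F9 as 1 culture it was 3. The causes were not tested.

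Genes with an SD over 1, 99 in all, numbered 38 with a pseudocount of 5 and 68 to 122 with a library left out. Of the 20 named genes, 14 remained among the 20 with a pseudocount of 5 and 12 without F9. Genes on in some libraries and off in others, 139, numbered 40 with thresholds of 2 and 0.1 CPM and 101 to 127 with a library left out. The 4 labelled cultures and the doubt over which libraries belong together limit what can be said of differences between cultures.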

Other observations

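The chains of the basement membrane collagen, col4a1 and col4a2, are neighbours in the RefSeq table and were chosen here after their values were seen. The levels of col4a1 were 1.11 CPM in F1, 2.27 in F4A, 2.56 in F9, 6.13 in FMB, 15.4 in FMA and 16.5 in F4B. Those of col4a2 were 1.33, 1.70, 3.53, 6.42, 13.8 and 17.3 CPM in the same libraries. Both were highest in F4B and FMA.

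Among genes with a mean of at least 100 CPM, the most even over the 6 libraries was citrate synthase (cs), at 576 to 602 CPM with an SD of 0.03 on the log2 scale. The motor protein gene myo10 (182 to 192 CPM), the Wnt secretion factor wls (174 to 183 CPM), the phosphatase subunit ppp1cab (LOC107387951; 202 to 214 CPM) and the splicing factor hnrnpl (261 to 278 CPM) also lay within a narrow range. The cytoskeletal gene actb, often used as a reference, had an SD of 0.38.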
